A study of Homo sapiens with 8 samples.

Results

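The regions described here are stretches of DNA that were listed as open chromatin in HCT8 cells given membrane vesicles (MVs) of E. coli and in neither of the other treatments. Any overlap of 1 bp or more joined peaks of the 3 FAIRE lists (mock, E. coli MVs and V. cholerae MVs), which gave 167189 regions. Those built from E. coli MV peaks alone numbered 46557, or 27.8%. Each of them was a single peak, so they made up 49.4% of the 94231 peaks of the E. coli MV list. The presence and absence of peaks chose these regions, so their strength and number are given as descriptions, with no test.

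HCT8 is a human ileocecal adenocarcinoma cell line of epithelial origin. Cells were left without vesicles (labelled as non treated and called mock here), or received MVs for 5 h. The MVs were those of the non-pathogenic E. coli K-12 strain MC1061 or of the pathogenic V. cholerae strain C6706. Per the study's methods, control cells received Tris-HCl, the buffer of the vesicles. FAIRE sequencing and ChIP sequencing of trimethylated lysine 4 of histone H3 (H3K4me3) were each done on 1 library per treatment, and each assay had 1 input library that served as the common background of its 3 lists. The treatment of each library was taken from its label, and no value in the lists checked that label independently, so every direction between the FAIRE libraries of the 2 MV treatments rests on the labels. With 1 library per treatment and assay there was no replicate check of any difference between treatments, and the intervals given below are exact 95% intervals that cover counting error only.

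FAIRE, the formaldehyde-assisted isolation of regulatory elements, recovers DNA that was not crosslinked to histones, which is typical of active promoters, enhancers and insulators. H3K4me3 is a histone mark laid down mainly at the start sites of active or poised genes, above all at promoters rich in CpG dinucleotides, while distal enhancers carry little of it. Gut epithelial cells meet vesicles of commensal bacteria constantly, and vesicle cargo such as lipopolysaccharide and peptidoglycan fragments is sensed by Toll-like and NOD receptors that act on NF-kB and AP-1.

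Sequences from the middle of the strongest regions show the kind of DNA they held. The first set below is the central 200 bp of 3 of the strongest regions at start sites, on the plus strand of hg19, with CpG dinucleotides in capitals. It comes from CIC at chr19:42787588-42787787, INF2 at chr14:105163636-105163835 and KLHL21 at chr1:6662358-6662557. RHOF, the third strongest, is not shown because its centre held annotated untranslated exon sequence.
CIC: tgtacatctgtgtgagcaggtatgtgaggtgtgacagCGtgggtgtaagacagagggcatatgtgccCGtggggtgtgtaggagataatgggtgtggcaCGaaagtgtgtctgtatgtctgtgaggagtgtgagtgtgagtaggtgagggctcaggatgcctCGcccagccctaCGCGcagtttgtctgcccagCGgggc
INF2: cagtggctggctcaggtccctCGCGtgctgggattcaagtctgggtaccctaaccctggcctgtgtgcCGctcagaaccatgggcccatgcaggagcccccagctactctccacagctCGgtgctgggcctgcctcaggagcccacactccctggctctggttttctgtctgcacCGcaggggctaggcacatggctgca
KLHL21: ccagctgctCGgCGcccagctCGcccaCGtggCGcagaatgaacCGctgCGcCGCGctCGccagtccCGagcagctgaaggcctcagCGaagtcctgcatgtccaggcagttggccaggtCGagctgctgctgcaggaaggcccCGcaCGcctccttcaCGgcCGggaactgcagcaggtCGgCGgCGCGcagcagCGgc
The KLHL21 stretch held 22 CpG at a GC content of 71.5%, while the CIC stretch held 7 at 57% and the INF2 stretch 5 at 64.5%, so a high FAIRE level did not go with a dense CpG island in each case.

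The second set, also with CpG in capitals, is from the 3 strongest regions away from start sites, at chr20:26189682-26189881 (nearest protein-coding gene ZNF337), at chr2:133012755-133012954 in an intron of ANKRD30BL and at chr17:79485392-79485591 in an intron of ACTG1.
ZNF337-near: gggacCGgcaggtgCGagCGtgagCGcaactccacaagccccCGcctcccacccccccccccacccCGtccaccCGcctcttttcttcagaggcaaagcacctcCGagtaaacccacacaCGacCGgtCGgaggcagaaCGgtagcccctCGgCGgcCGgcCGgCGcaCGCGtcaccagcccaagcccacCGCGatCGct
ANKRD30BL: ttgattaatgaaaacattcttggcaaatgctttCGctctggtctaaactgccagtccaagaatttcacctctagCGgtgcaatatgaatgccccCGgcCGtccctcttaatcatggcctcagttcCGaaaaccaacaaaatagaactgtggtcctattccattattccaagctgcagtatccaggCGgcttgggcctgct
ACTG1: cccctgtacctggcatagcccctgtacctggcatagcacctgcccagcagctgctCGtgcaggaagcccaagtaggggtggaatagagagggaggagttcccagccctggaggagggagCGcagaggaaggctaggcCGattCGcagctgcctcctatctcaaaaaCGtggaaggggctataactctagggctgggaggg
The third set is from 2 of the 3 strongest regions whose central 200 bp held the AP-1 motif TGANTCA, which is printed in capitals, and lay at chr3:194040606-194040805 (nearest gene CPN2) and chr17:75319298-75319497 (SEPTIN9).
CPN2-near: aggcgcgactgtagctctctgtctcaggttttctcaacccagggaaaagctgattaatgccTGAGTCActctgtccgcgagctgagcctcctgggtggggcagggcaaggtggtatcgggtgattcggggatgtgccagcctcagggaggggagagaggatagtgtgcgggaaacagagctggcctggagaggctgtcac
SEPTIN9: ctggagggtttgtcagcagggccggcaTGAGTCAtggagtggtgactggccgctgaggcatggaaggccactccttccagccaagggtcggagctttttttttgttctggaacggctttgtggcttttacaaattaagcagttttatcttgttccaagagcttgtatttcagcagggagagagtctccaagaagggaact

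Most of the regions were weak and narrow. The median normalized tag count, in tags per 10000000 mapped tags, was 15.2 (middle 50% from 12.7 to 22.8), which corresponded to 12 tags in the E. coli MV library. The upper 10% began at 39.3, and the strongest region reached 799.9. Regions that were also in both other lists had a median of 49.4 in the same library, those shared with the V. cholerae MV list 30.4 and those shared with mock 19. The median width was 500 bp, the smallest width the peak caller gave. In all, 24317 regions (52.2%) had this width, 14579 were wider but not above 1000 bp, 6133 measured more than that and up to 2000 bp, and 1528 (3.28%) were wider still.

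Width, strength, base composition and position moved together within the set. The median normalized tag count was 12.7, 19, 36.8 and 72.3 from the narrowest to the widest of these 4 classes. In the same order the median GC content of the central 200 bp was 56, 58.5, 60.5 and 62%, the share within 1000 bp of a protein-coding start site 12.4, 20.5, 35.8 and 47.4%, and the share on an H3K4me3 peak of any treatment 5.13, 11.5, 23.2 and 36.8%. The tag density hardly differed between the classes, with medians of 25.4, 26.8, 26.9 and 27.3 normalized tags per kb, so the wider regions were longer stretches of similar density. The median enrichment over input was 6.19-fold in the whole set.

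**Figure D1:**
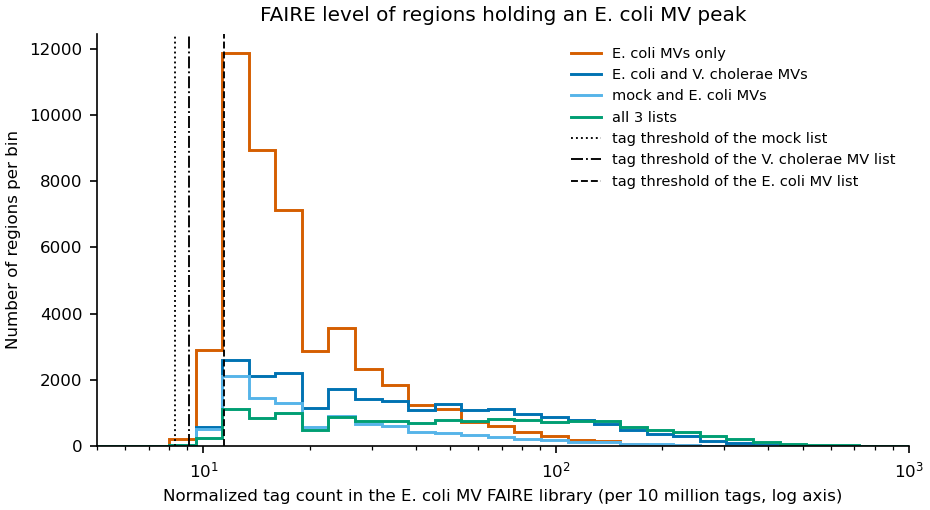
Number of regions per bin of normalized tag count in the E. coli MV FAIRE library (log axis), by the lists that held them, with the tag threshold of each FAIRE list as a vertical line. Regions with E. coli MVs only are most frequent just above the thresholds, with a median of 15.2, while regions of all 3 lists spread far above them, with a median of 49.4.

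The 3 FAIRE libraries differed in depth and in how much of it fell into peaks. The E. coli MV library was the shallowest, with 7888670 tags against 12077180 for V. cholerae MVs and 14474665 for mock, yet it had 94231 peaks against 79591 and 66436, and 37.3% of its tags lay in peaks against 13.9% and 7.12%. Scaled to total tags, 46555 of the 46557 regions would have given at least the 12 tags that the mock list required, and 46339 (99.5%) the 11 tags that the V. cholerae MV list required. In the other direction, 14.8% of the 33571 regions with mock peaks only would have reached the threshold of the E. coli MV library, and 33.3% of the 33331 regions with V. cholerae MV peaks only.

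That count depended on the scaling. At the 14389 regions of all 3 lists the E. coli MV level exceeded the mock level by a median of 3.86-fold (log2 1.95, 1.92 to 1.99) and the V. cholerae MV level by 2.23-fold (log2 1.16, 1.14 to 1.18). When the levels were divided by these ratios, 6695 regions (14.4%) would have reached the mock threshold and 13916 (29.9%) the V. cholerae MV threshold. When the libraries were scaled to their tags in peaks, 3828 (8.22%) and 10608 (22.8%) would have done so. Under both of these scalings most of the regions lay below the level that the other lists required. The part that the share of tags in peaks had in the number of regions was not tested. Chromatin was taken from whole cultures, so a site open in few cells and a site weakly open in all cells cannot be told apart.

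The overlap rule cut through a continuous range of distances. A peak of another list lay within 100 bp of 1275 regions (2.74%), which had a median normalized tag count of 16.5. The 1401 E. coli MV peaks that shared only 1 to 100 bp with another list, and so were not kept, had the same median of 16.5. For 27480 regions (59%) the next peak lay over 1 and up to 10 kb away, and for 6588 (14.2%) farther, with a median of 13.9.

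Start sites of protein-coding genes lay within 1000 bp of 8922 regions, 19.2% (18.8 to 19.5%). The share was 8.22% in regions with mock peaks only, 9.26% in regions with V. cholerae MV peaks only, 34.9% in those of both MV lists and 41.7% in those of all 3 lists. In E. coli MV regions shared with mock it was 22.3%, close to that of the set. When the peaks of all 3 lists were limited to at least 8-fold over input before joining, 23745 regions had E. coli MV peaks only and 32.9% of them lay at a start site. Of the 11780 regions of the set whose own peak reached 8-fold, 18.2% did. The median peak was 6.48-fold over input in the E. coli MV list, 5.26-fold in the V. cholerae MV list and 5.06-fold in the mock list before this limit. Centres were most frequent just downstream of a start site, with 7.08% of the regions at 0 to 500 bp after it and 5.16% at 0 to 500 bp before it, against 16.2% and 12.7% in regions of all 3 lists and 2.09% and 1.7% in regions with mock peaks only. The centre of 9216 regions (19.8%) was more than 50 kb from any such site. Away from start sites, regions were placed by their middle base. Of all regions, 37.5% lay there in introns, 7.81% in exons and 35.5% outside protein-coding genes.

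At a given level the share at start sites was closer to that of regions of all 3 lists than it was over the whole set. Between 20 and 30 normalized tags the share was 21.1% (20.2 to 22%), against 18.3% (16.5 to 20.2%) in regions of all 3 lists. From 60 to 120 it was 60.2% (57.8 to 62.6%) against 57.7% (55.9 to 59.4%), and from 120 upwards 73.7% (68.6 to 78.3%) against 79% (77.6 to 80.4%). Regions of both MV lists had 83.3% (81.7 to 84.7%) from 120 upwards, an interval that did not meet that of the regions with E. coli MVs only. The GC content did differ at matched level. It was higher in the regions with E. coli MVs only than in regions of all 3 lists in each of the 7 bins, by 1.3 to 3 percentage points, for example 58.5% against 55.5% from 20 to 30 normalized tags and 64.5% against 61.5% from 60 to 120. Width was not matched, with medians of 803 and 1142 bp from 20 to 30. The centre of a region joined from several peaks also need not be that of its E. coli MV peak. The part of either in the GC content was not tested.

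Over the whole set the central 200 bp had a median GC content of 57.5% (middle 50% from 53 to 62%), against 50% in regions with mock peaks only, 51% in regions with V. cholerae MV peaks only and 58.5% in regions of all 3 lists. The ratio of observed to expected CpG followed, with medians of 0.269, 0.203, 0.217 and 0.333. E. coli MV regions shared with mock were close to the set, with a GC content of 57% and a ratio of 0.261. Only 87 regions had a GC content under 40%. Fragment lengths in the list headers also differed, with 284 bp for E. coli MVs, 260 bp for V. cholerae MVs and 336 bp for mock, and their part in the base composition was not tested.

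H3K4me3 was not used to choose the regions. Of the 46557, 41647 (89.5%) lay on no H3K4me3 peak of any treatment. The share on a peak was 5.83% (5.61 to 6.04%) for the mock H3K4me3 list, 8.71% (8.46 to 8.97%) for E. coli MVs and 9.09% (8.83 to 9.36%) for V. cholerae MVs. With all 3 FAIRE lists limited to 8-fold over input before joining, these shares were 24.7, 27.6 and 28.2% in 23745 regions. These include regions whose mock or V. cholerae MV peaks fell below the limit. In the 11780 of the 46557 regions whose own peak reached 8-fold, the shares were lower, 4.12, 5.48 and 5.71%. The lower mock share went with a shallower library, of 3463875 tags against 10528314 and 13011839, and with fewer H3K4me3 peaks, 23603 against 31466 and 29347. In regions of all 3 FAIRE lists the shares were 35, 42.8 and 44.8%, so the order of the 3 H3K4me3 lists was the same there. It was also the same in regions with E. coli MVs only as in those of both MV lists, where the shares were 29.8, 36.7 and 37.9%. Regions shared with mock had 7.38, 10.3 and 11%, close to the regions with E. coli MVs only.

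Regions open with E. coli MVs only did not carry H3K4me3 of the E. coli MV library alone more often than that of the other MV library. H3K4me3 of E. coli MVs only was found at 485 regions (1.04%, 0.951 to 1.14%), of V. cholerae MVs only at 690 (1.48%, 1.37 to 1.6%), of both but not mock at 1023 (2.2%, 2.07 to 2.33%) and of all 3 treatments at 2458 (5.28%, 5.08 to 5.49%). In regions with V. cholerae MV FAIRE peaks only, H3K4me3 of E. coli MVs only stood at 1.1% and that of V. cholerae MVs only at 0.96%. In neither class did the mark of the same treatment alone come out ahead of that of the other MVs alone.

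The 2458 regions on H3K4me3 of all 3 treatments were a distinct group. Their median FAIRE level was 52, 70.3% of them lay at a start site, and their median GC content was 65%. The summed H3K4me3 level of the peaks they touched had a median of 147 normalized tags in mock, against 253 after E. coli and 293 after V. cholerae MVs. The median log2 ratio to mock was 0.56 (0.54 to 0.59) for E. coli and 0.71 (0.67 to 0.74) for V. cholerae MVs, and 88.3% and 85.8% of the regions were above mock. Regions of all 3 FAIRE lists had 0.56 and 0.73, so higher H3K4me3 than mock at these sites was not particular to the regions open with E. coli MVs only. The share of all H3K4me3 tags that lay in peaks also differed, 38.6% in mock against 53.9% and 56.1%, which is a log2 difference of 0.48 and 0.54, and its part in these ratios was not tested. In regions with mock peaks only, of lower GC content (48%), the ratios were 0.36 and 0.33 over 273 regions.

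Position and H3K4me3 together split the set into 4 groups. Away from start sites and without H3K4me3 lay 35049 regions (75.3%), with a median level of 15.2 and 384 regions at 60 or above. At start sites without H3K4me3 lay 6598 (14.2%), with a median level of 17.7. Away from start sites with H3K4me3 lay 2586 (5.55%), with a median of 26.6, and at start sites with H3K4me3 lay 2324 (4.99%), with a median of 54.5, a GC content of 67% and the highest ratio of observed to expected CpG, 0.759. The promoters with an active mark were thus a small and strong share of the set.

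Motifs were counted on both strands of the central 200 bp, in the 46552 regions that were on the chromosomes searched. The AP-1 motif TGANTCA, bound by FOS and JUN proteins, was in 2698 regions, 5.8% (5.59 to 6.01%), against 6.58% of all FAIRE regions. It was most frequent in the regions away from start sites that carried H3K4me3, 14.2% (12.9 to 15.6%), against 5.69% (5.45 to 5.94%) of those away without the mark and 3.75% (3.37 to 4.17%) of those at start sites. The same order held in regions with V. cholerae MV peaks only, where the shares were 16.6, 6.88 and 5.87%. It also held in regions of all 3 lists, with 12.2, 6.6 and 3.81%. In regions with mock peaks only the shares were 7.04, 6.24 and 4.6%, again in this order, with the first 2 closer together. Among the marked distal regions the motif was in 15.7% of those below 20 normalized tags and in 13.5% of those from 20 upwards.

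Other motifs differed between the lists in their own ways. The GGGGCGGGG motif of SP and KLF factors was in 2.11% (1.99 to 2.25%) of the regions, 1.91% of all FAIRE regions, 4.55% of those of all 3 lists and 0.378% of those with mock peaks only. At a GC content of 60% or more it was in 4.71% of the regions (4.39 to 5.04%) and 4.74% (4.06 to 5.5%) of those shared with mock. It was in 9.35% (8.64 to 10.1%) of those of all 3 lists and 1.82% (1.26 to 2.53%) of those with mock peaks only. This bin has no upper limit, so base composition within it was not matched. The TTTATNG motif of CDX factors, which direct intestinal identity, was in 3.42% of the regions, 5.32% of all FAIRE regions and 7.45% of those with mock peaks only. It was in 3.59% of the regions shared with mock and 4.09% of those of all 3 lists. This motif was not counted by GC content, which was lower in regions with mock peaks only. The TEAD motif GGAATGT was in 2.73% and the HNF4 motif CAAAGNNCA in 4.55%. A match is a match of letters and not a measured binding site.

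The density of the regions differed widely between chromosomes. It ran from 2.56 per Mb on chromosome X to 48.5 per Mb on chromosome 19, while their share of the E. coli MV peaks stayed between 45.7% (chromosome 17) and 54.5% (chromosome 18). Within 5 Mb of a chromosome end lay 22.6% (22.2 to 23%) of them, against 12% of regions with mock peaks only, 13.1% of those with V. cholerae MV peaks only and 20.4% of those of all 3 lists. These end segments make up 7.57% of the sequence, and they held 21.4% of the E. coli MV regions shared with mock. Gene bodies with the most regions were PTPRN2 with 90, SHANK2 with 83, SORCS2 with 73, ENSG00000286192 with 69, which overlaps MAD1L1 with 68, and CAMTA1 with 62. These are long genes, and PTPRN2 with 8.58 regions per 100 kb, SHANK2 with 12.8 and SORCS2 with 13.3 stood above the 1.53 per 100 kb of the genome. Mock and V. cholerae MV peaks were also present in them, for example 66 and 57 in PTPRN2, beside 135 E. coli MV peaks.

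The strongest region at a start site was at CIC (chr19:42783324-42792050), which encodes a transcriptional repressor acting downstream of receptor tyrosine kinases. Its level was 378 (336 to 423), from 298 tags in 8726 bp, and no mock or V. cholerae MV peak was nearer than 1.69 kb. The H3K4me3 peaks on it summed to 133 in mock, 337 after E. coli and 496 after V. cholerae MVs. INF2, a formin that builds and severs actin filaments, followed with 299 (262 to 339.9) at chr14:105159811-105167659. There the H3K4me3 peaks summed to 20.2, 82.6 and 968 in the same order, so the highest value was that of V. cholerae MVs. In these sums a peak counts whole, also where it reaches beyond the region. How much of the 968 lay within the region was not measured.

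RHOF, a small GTPase of filopodia, had a level of 280.1 (244 to 319.6) at chr12:122229570-122233440, and KLHL21, an adaptor of a cullin ubiquitin ligase used in cell division, 259.9 (226 to 298) at chr1:6660786-6664128. SMAD3, the transcription factor through which TGF-beta receptors signal, had 257 (223 to 295) at chr15:67355872-67360066, with a peak of another list 321 bp away. The region shared by PKP4, a plakophilin of cell junctions, and CCDC148 had 251 (217 to 288) at chr2:159313076-159315186. It had the highest enrichment of these 10, 17-fold over input, and no peak of another list within 5.02 kb.

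Of the remaining ones, ABHD15 and TP53I13 shared a region at 237, ALDH3B1, an aldehyde dehydrogenase, stood at 232, THEM6 at 219, and the potassium channel gene KCNQ1 shared a region at 218 with TRPM5, a cation channel of taste and tuft cells. The intervals of neighbours in this order overlapped from INF2 downwards, and that of CIC overlapped that of INF2. All 10 lay on H3K4me3 peaks of all 3 treatments. H3K4me3 was higher with E. coli MVs than in mock at 9 of the 10 and lower at ALDH3B1 (63.5 in mock and 60.8 with E. coli MVs), and it was highest with V. cholerae MVs at all 10.

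Away from start sites the strongest region by far, 799.9 (739 to 865), lay at chr20:26188770-26190792 beside the centromere, 511 kb from the nearest protein-coding start site (ZNF337), over the long non-coding RNA gene MIR663AHG. Its input level was also high, 133, and its enrichment 4.74-fold, close to the 4-fold minimum of the lists. The second, 259.9 in an intron of ANKRD30BL (chr2:133012031-133013677), had an input level of 47.8. Its enrichment of 4.29-fold was also close to that minimum. The sixth, 233 in 500 bp of an intron of HFM1 (chr1:91852944-91853444), had an input level of 35.9. Of the 50-mers taken from the centre of the HFM1 region, 1 occurred once in hg19 and the other two 1088 and 2980 times, so the position of its tags is uncertain. These 3 regions had no H3K4me3 peak. None of the 50-mers from the other 9 regions occurred a second time. With 3 such 50-mers per region, this does not show that all tags of those regions map to a single place. That holds also for the ANKRD30BL region, where the origin of the tags was not tested.

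The genes of both cytoplasmic actins held the third and the ninth strongest of these regions. The one in ACTG1 had 248 (215 to 286) at chr17:79483562-79487420, with H3K4me3 of 34.6, 126 and 214 in mock, E. coli MVs and V. cholerae MVs. That in ACTB had 218 (187 to 253) at chr7:5594289-5596824, with 31.8, 115 and 212. Regions in introns of PLEKHA7, a protein of the adherens junction, at 239.6, and of ZBTB7A, a transcriptional repressor, at 229, also lay on H3K4me3 peaks of all 3 treatments, as did the region 3.5 kb from KLF9 at 227 and that nearest to PWWP2B at 216.

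The fourth strongest region away from protein-coding start sites, 248 (215 to 286) over 6596 bp at chr22:46507753-46514349, had no H3K4me3 peak and lay 32.1 kb from PPARA. It spans the microRNA genes MIRLET7A3, MIRLET7B and MIR4763. The let-7 family represses growth-promoting messenger RNAs such as those of RAS and HMGA2. The mature 5p strands of both let-7 genes are shown because they share the seed (bases 2 to 8, in capitals), the part that pairs with targets. The sequences are from RefSeq (GRCh38.p14).
hsa-let-7a-5p: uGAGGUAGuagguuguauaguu
hsa-let-7b-5p: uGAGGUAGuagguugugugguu
Nothing was measured here on the level of either microRNA.

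The widest regions were those of CIC and INF2, followed by DGKQ, a diacylglycerol kinase, with 7693 bp (level 186), the region of KCNQ1 and TRPM5 with 7512 bp, and that of DGAT1, which makes triglycerides, and the heat shock factor gene HSF1 with 7189 bp (level 180). The last and that of DGKQ had no H3K4me3 peak in any treatment.

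Counted by gene, 6470 of 20098 protein-coding genes (32.2%) had a region within 1000 bp of at least 1 of their annotated start sites, and 2330 (11.6%) had such a region and no mock or V. cholerae MV peak at any start site. Regions with mock peaks only were at 2427 genes (12.1%) and those with V. cholerae MV peaks only at 2642 (13.1%). The 6470 genes had a median of 7 annotated start sites against 5 over all genes, and when only the start site of the canonical transcript was used, 3681 genes (18.3%) remained. H3K4me3 in mock was listed at 61.6% of the 6470 genes, 42.5% of the 2330 and 60.4% of all genes. Where all 3 treatments had it, the median log2 ratio of H3K4me3 with E. coli MVs to mock was 0.63 (0.61 to 0.64) for the 6470 genes, 0.53 (0.49 to 0.55) for the 2330 and 0.52 (0.51 to 0.52) for all genes.

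The gene lists are read against 32.2%, the share over all protein-coding genes, and their intervals are wide. A FAIRE peak of any kind at a start site was found at 41.7% of all protein-coding genes in mock, 77.7% after E. coli and 62.4% after V. cholerae MVs. Among 27 receptors and adaptors that sense bacteria, 10 (37%, 19.4 to 57.6%) had a region. Of these 10 genes 6 had no mock or V. cholerae MV peak at a start site, while over all protein-coding genes it was 2330 of the 6470 with a region (36%). CD14, the co-receptor of TLR4 for lipopolysaccharide, had a region of 83.7 (64.7 to 106) at chr5:140011313-140013076, with H3K4me3 of 101, 136 and 167 in mock, E. coli MVs and V. cholerae MVs. NOD1, the cytosolic sensor of peptidoglycan, had 64.6 (48.1 to 85) at chr7:30517764-30518835, with H3K4me3 of 182, 332 and 360.4. Neither gene had a mock or V. cholerae MV FAIRE peak within 1000 bp of a start site, which is what no peak in the other lists stands for in the gene lists, but the NOD1 region had a peak of another list 546 bp away. IRAK1, a kinase of the Toll-like receptor pathway, had 3 regions of 15.2 to 17.7, and TLR2 and TLR9 had 1 each of 11.4 and 16.5 without H3K4me3.

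Of 34 NF-kB and TNF pathway genes 10 (29.4%, 15.1 to 47.5%) had a region. CFLAR, an inhibitor of caspase-8, had 3, the strongest 79.9 (61.4 to 102), with an AP-1 motif in its centre and H3K4me3 of 427, 596 and 640.2. TNIP1, an inhibitor of NF-kB signalling, had 3 of up to 34.2. The region at IL6, 48.2 (34.1 to 66.1) at chr7:22765686-22767398, also lay at a start site of STEAP1B, held an AP-1 motif and had no H3K4me3 peak in any treatment. TNF had a region of 15.2 and no H3K4me3 peak. IL6 and TNF were the 2 genes of this list that had a region and no FAIRE peak in the other lists.

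Of 27 immediate early and AP-1 genes 5 (18.5%, 6.3 to 38.1%) had a region, while all 27 had an E. coli MV FAIRE peak at a start site, 23 a V. cholerae MV peak and 12 a mock peak, against 77.7, 62.4 and 41.7% of all genes. CCN2, a matricellular growth factor, had 98.9 (78.2 to 123) and no peak in the other lists. KLF2, a zinc finger factor of early responses, had 82.4 (63.6 to 105) beside a V. cholerae MV peak of 12.4. NR4A1, an orphan nuclear receptor, had regions of 53.2 and 25.4 beside peaks in all 3 lists. Interferon response genes had a region in 4 of 25 (16%, 4.54 to 36.1%), led by IRF5 at 34.2 and by MX1, MX2 with 3 and 2 regions of 13.9 to 29.2.

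Junction and polarity genes had a region in 12 of 28 (42.9%, 24.5 to 62.8%). TJP1, the tight junction scaffold ZO-1, had 100.1 (79.3 to 125) at chr15:30113806-30115533, with a mock peak of 12.4 near one of its start sites, no V. cholerae MV peak and H3K4me3 of 508, 617 and 566. LLGL2, a basolateral polarity protein, had 4 regions of 10.1 to 76.1, and SCRIB of the same polarity module had 4 of 13.9 to 69.7, beside peaks in all 3 lists at other start sites. Genes of the actin cytoskeleton and its regulators had a region in 11 of 26 (42.3%, 23.4 to 63.1%). CDC42, the GTPase of cell polarity, had 105 (83.8 to 130.4) and no peak in the other lists, MYH9, the non-muscle myosin heavy chain, had 5 of 21.5 to 50.7 and CTTN, cortactin, 4 of 13.9 to 44.4. These lists held genes with medians of 8.5 and 9 start sites, and 3 genes of each kept a region at the canonical start site.

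TGF-beta and SMAD genes had a region in 9 of 24 (37.5%, 18.8 to 59.4%). Beside SMAD3, with 6 regions, TGFBR3, the co-receptor betaglycan, had 84.9 (65.8 to 108) with no peak in the other lists and H3K4me3 of 286, 501 and 577, and ACVR1B, an activin receptor, had 68.5 (51.4 to 89.3). At SMAD3 a region of 16.5 (chr15:67368813-67369440) at an internal start site lay on an H3K4me3 peak of the E. coli MV list alone (69.3). The neighbouring region of 20.3 (chr15:67370104-67370604) had H3K4me3 of 69.3 with E. coli and 49.2 with V. cholerae MVs. The mark there was thus not limited to E. coli MVs. Wnt and crypt genes had a region in 6 of 20 (30%, 11.9 to 54.3%). LEF1, a Wnt effector, had 119 (96.3 to 146) with the next peak of another list 33.8 kb away, EPHB3, an ephrin receptor, had 43.1 and 39.3 and TCF7 43.1.

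Intestinal differentiation genes had a region in 10 of 30 (33.3%, 17.3 to 52.8%). VDR, the vitamin D receptor, had 68.5 (51.4 to 89.3) at chr12:48275667-48277220, beside FAIRE peaks that summed to 34.5 in mock and 93.6 with V. cholerae MVs at its other start sites. MUC5AC, a gel-forming mucin, had 3 regions of 20.3 to 68.5, and ALPI, intestinal alkaline phosphatase, 1 of 54.5, and neither had a FAIRE peak in the other lists. ALPI had no H3K4me3 peak in any treatment, and MUC5AC only one of 21.5 with V. cholerae MVs, on its region of 45.6. Ribosomal protein genes of the cytosol, included as constantly active genes, had a region in 4 of 30 (13.3%, 3.76 to 30.7%). All 30 had an E. coli MV peak, 25 a V. cholerae MV peak and 20 a mock peak, against the same shares of all genes. RPS14 had 74.8 and RPL4 48.2 without a peak in the other lists and with H3K4me3 of 716, 883 and 796, and of 1181, 1138 and 932.

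Neuronal and synapse genes, included as genes of another cell type, had a region in 13 of 28 (46.4%, 27.5 to 66.1%), a share whose interval holds the 32.2% background. They had a median of 18 annotated start sites and 7 kept a region at the canonical one. SHANK2, a synaptic scaffold, had 5 regions of 11.4 to 43.1 and CACNA1A, a calcium channel, had 6 of 11.4 to 21.5, none on an H3K4me3 peak.

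Of 15 genes that the study discussed, chosen there on data from these cells and so no independent evidence, 5 (33.3%, 11.8 to 61.6%) had a region, among them TJP1, VDR, ALDH1A3 and MAP3K14. RND3 and SOCS2 had no region in the set because their E. coli MV peaks overlapped a peak of another list. Their FAIRE levels at start sites were 171 and 38.1 for RND3, an atypical small GTPase, and 311 and 104 for SOCS2, a suppressor of cytokine signalling, with E. coli and V. cholerae MVs respectively, and neither had a mock peak. These levels are per 10000000 tags and carry the difference in signal between the libraries given above. For RND3 and SOCS2 the study reported the reverse, chromatin at the start site opened by V. cholerae MVs and not by E. coli MVs. The cause of this difference was not tested.

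ALDH1A3, a retinal dehydrogenase, had a region of 57 and MAP3K14, the kinase NIK, 2 that summed to 25.3. CDKN1B, SKIL, CDK6, CCND1, KRT80, JUN and LTB had E. coli MV peaks of 88.7 to 419.6 in sum, each overlapping or accompanied by V. cholerae MV peaks of 12.4 to 127, and no region of the set.

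The label of an epithelial line was checked with marker genes. All 10 epithelial markers (EPCAM, CDH1, KRT8, KRT18, KRT19, VIL1, CDX1, CDX2, CLDN4 and CLDN7) had a FAIRE peak with E. coli MVs, and 9, 10 and 9 had H3K4me3 in mock, E. coli MVs and V. cholerae MVs. Over all protein-coding genes, 77.7% had such a FAIRE peak, and 60.4, 64.2 and 65.2% had the mark in the same order. H3K4me3 was at 1 of 7 blood cell markers (CD14) in each treatment and at 0, 1 and 1 of the 5 fibroblast, endothelial and muscle markers found in the annotation. FAIRE peaks of the E. coli MV list were at 4 of the 7 blood cell markers and 4 of the 5 in the last group. These peaks thus set the marker groups apart less than H3K4me3 did. Regions of the set were at 4 of 10 epithelial markers, with KRT8 at 144 (119 to 174), but also at 3 of 7 blood and 4 of 5 of the last group, among them COL1A1 with 4 regions of 11.4 to 41.8, ACTA1 with 27.9 and MYOD1 with 24.1, none on H3K4me3. Of the blood markers CD14 had a region of 83.7 on H3K4me3 peaks of all 3 treatments, while ITGAM with 30.4 had none of the mark.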

How the data were processed

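Peak lists of 6 libraries from 8 samples were used (FAIRE and H3K4me3 for mock, E. coli MVs and V. cholerae MVs), while the 2 input libraries entered only through the lists. The authors aligned reads to hg19 and called peaks per library with HOMER in its histone mode, and the submitters' processing notes name Bowtie 1.1.2, SAMtools 1.3.1 and HOMER 4.7.2. The study's methods name Bowtie 2 and MACS, so the aligner is not certain, while the headers of all 6 lists are those of HOMER. Per the file headers a peak needed at least 4-fold over input and a p-value over input of 0.0001 or less, and each list gives normalized tag counts as signal per 10000000 tags. The deposited fold change, a ratio of library to input, and the deposited p-value were the authors' own and p-values were not used. FAIRE depth was 7888670 to 14474665 tags, and whole tag counts were recovered from the normalized counts the authors deposited.

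Peaks sharing at least 1 bp were joined. Positions were set against GENCODE v44 lifted to GRCh37, with a window of 1000 bp around start sites, and base composition and motifs were read in the central 200 bp. Analyses used Python 3.11.15, numpy 2.4.6, pandas 2.3.3 and scipy 1.17.1, and the joining and interval code was tested on simulated data. With 1 library per treatment and assay, no test between treatments was made. Members and gene lists were chosen with earlier results of these data known. Named genes are those of the 10 strongest regions at start sites and elsewhere, the 5 widest regions, the 3 strongest of each gene list, the genes the study discussed and the 5 gene bodies with the most regions, and any other was chosen after its values were seen. Of 337 gene list entries, 3 matched under a newer symbol and 1 was not in the annotation. Some genes and 1 sequence that these rules name are not reported here.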

Additional observations from a re-analysis of the deposited data

How the results depend on the processing

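No paired analysis was possible because no treatment had a second library. With peaks of all 3 lists limited to 8-fold over input before joining, there were 23745 regions, with a median level of 17.7, a median width of 642 bp, 32.9% at start sites, 24.7, 27.6 and 28.2% on H3K4me3 peaks of mock, E. coli MVs and V. cholerae MVs, and a GC content of 59%. With the limit on the regions alone, 11780 remained, with a median level of 13.9, 18.2% at start sites, 4.12, 5.48 and 5.71% on H3K4me3 peaks, a GC content of 58%, the AP-1 motif in 4.92%, and 1989 genes and 30 list genes with a region at a start site, against 6470 and 96. Scaled to tags in peaks, the median level was 40.7. The share at start sites was 16% in a window of 500 bp, 27.7% in one of 2500 bp and 25.5% with start sites of all annotated genes. With the canonical start site only, an alternative added after seeing the data, it was 7.73%, with 3681 genes and 46 list genes. Within 500 bp of an H3K4me3 peak lay 6.86, 10.1 and 10.5%. Over the whole region the AP-1 motif was in 18.2% and the GC content was 56.4%. Where no value shows it, the cause was not tested. The ratio and tags-in-peaks scalings of the tag thresholds were also added after seeing the data. Requiring an overlap of 50% (51562 regions), joining peaks up to 1000 bp apart (34068) or keeping regions at or above the median mock level (46339) left the number of regions within 1.5 times 46557. Depth limits the weakest regions, where 12 tags at the median carry a wide counting interval.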
